A study of Mus musculus with 6 samples.

Results

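The miR-29 family was described in small RNA libraries of epididymal white adipose tissue (WAT) from male C57BL6/J mice. Members were taken by name, as every listed row of miR-29a, miR-29b (including miR-29b-1 and miR-29b-2) and miR-29c, and 7 of the 1983 listed rows met this rule. Of these 7, 6 stood above the floor of the table in at least 3 of the 6 libraries, as did 329 of all rows, and those 6 were tested. The study compared 3 libraries from wild type (Wt) mice with 3 from mice that overexpress angiotensinogen as a transgene under the aP2 promoter (Agt Tg). Angiotensinogen is the precursor of angiotensin II. The aP2 promoter drives expression in adipocytes and is also active in macrophages. Both groups shared strain, sex and tissue. The labels give a chow diet, whereas the methods of the study describe a low fat diet, and no age is stated. The labels do not say whether libraries came from pooled animals, so p-values measure the spread between these libraries, which may be technical.

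Library totals recovered from the values were 7480766, 7838874 and 9821467 reads in Wt 1 to 3, and 10367417, 6387766 and 10562634 reads in Agt Tg 1 to 3. Values are log2 reads per 10000000 of that total, called normalised reads below, and anything under 10 was raised to 10, a floor of 3.32 on the log2 scale. The floor stood for between 6.39 and 10.6 reads. Wt 2 stood apart by miRNAs of epididymis, testis and epithelium, which summed to 142985 normalised reads there and to at most 2064 in any other library, so miR-29 fold changes are also given without it. Rows carry human names although the tissue is mouse, and the number of mismatches allowed in mapping is not given in the sources used here.

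MicroRNAs of the miR-29 family pair through their seed, near the 5′ end, with sites in the 3′ untranslated regions of messenger RNAs, many of which encode collagens, elastin and fibrillin. They are known as brakes on extracellular matrix production, and transforming growth factor beta, a signal downstream of angiotensin II in fibrotic tissue, lowers them in fibroblasts. In adipocytes they are also known to dampen insulin-stimulated glucose uptake.

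The mature sequences are shown because the guides differ by few bases, so that a short read can be close to more than 1 of them. They are mouse sequences from RefSeq (GRCm38.p6), 5′ to 3′, with the seed (bases 2 to 8) in capitals. The 3p arms, which are the guide strands, come first, and the 5p arms that were tested follow.
miR-29a-3p: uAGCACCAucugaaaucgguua
miR-29b-3p: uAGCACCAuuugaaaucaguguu
miR-29c-3p: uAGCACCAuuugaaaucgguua
miR-29a-5p: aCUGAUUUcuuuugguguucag
miR-29b-1-5p: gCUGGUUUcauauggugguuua
miR-29c-5p: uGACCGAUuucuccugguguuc

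All 3 guides carried the seed AGCACCA, and 0 other names among the 1679 distinct mature miRNA names of the reference table carried it. Counting from 1 at the 5′ end, miR-29a-3p differed from miR-29c-3p by the single substitution C10U. The guide miR-29b-3p shared its first 17 bases with miR-29c-3p and then differed by A18G, G21U and U22A, with a length of 23 bases against 22. Its last 6 bases, AGUGUU, are known as an element that directs this miRNA to the nucleus. The 5p arms did not share a seed with the guides or with one another.

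The 4 hairpins lie in 2 pairs. Mir29a (chr6:31062660-31062747) and Mir29b-1 (chr6:31063023-31063093) are on the minus strand, 275 bases apart. Mir29b-2 (chr1:195037040-195037120) and Mir29c (chr1:195037547-195037634) are on the plus strand, 426 bases apart, both within an exon of the noncoding gene A330023F24Rik and opposite an exon of Cd46. Mir29b-1 overlapped the long noncoding RNA gene Gm27019 by 2 bases. The guide miR-29b-3p is made from both pairs, and which hairpin a read came from cannot be told apart.

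A match to the guides' seed was read in the longest annotated 3′ untranslated region of each mouse gene (GENCODE M21, transcript strand only). The motif TGGTGCT was found in 13% of 20968 genes, and its longer form TGGTGCTA, which includes the former, in 2.85%. Of 12 extracellular matrix genes listed for their known link to miR-29, 10 held the shorter motif and 9 the longer, a description of chosen genes and not a test. Windows around 1 match are shown for Col1a1 and Col3a1, which encode fibrillar collagens, for Eln, which encodes elastin, and for Fbn1, which encodes fibrillin, with the match in capitals.
Col1a1: aaggaatttcTGGTGCTAtagaagctga
Col3a1: aatgtctcaaTGGTGCTAtaataaataa
Eln: tcatcaacgtTGGTGCTActgcttggtg
Fbn1: gttgtctgttTGGTGCTAgtaaattctc

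On GRCm38 these windows lie at chr11:94952528-94952555 and chr1:45348972-45348999 on the plus strand, and at chr5:134703726-134703753 and chr2:125301163-125301190 on the minus strand. Neither Col1a2 nor Sparc, also matrix genes, held the motif, and neither did Agt, whose 3′ untranslated region of 396 bases had 0 matches. Messenger RNA levels were not analysed here.

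The family was carried by miR-29a-3p. Its level was 13.67, 13.88 and 13.75 in Wt 1 to 3 and 13.44, 13.58 and 13.60 in Agt Tg 1 to 3, from 7814 to 13560 reads. Every Agt Tg library lay below every Wt library, and all 6 values fell within 0.44 log2 units. In each library it ranked between place 42 and place 45 among the 329 rows tested.

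The guide miR-29c-3p followed at 8.80, 9.90 and 8.68 in Wt and 8.29, 8.64 and 9.43 in Agt Tg. Wt 2 was the highest library and Agt Tg 3 the next, and the genotypes overlapped. These values rest on 255 to 751 reads. The guide miR-29b-3p stood at 6.12, 7.69 and 6.52 in Wt and 6.68, 6.60 and 7.46 in Agt Tg, from 52 to 186 reads. Again Wt 2 and Agt Tg 3 were the highest, and the genotypes overlapped.

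The 5p arms, which are mostly discarded as passengers, were low, and each was at the floor in at least 1 library. For miR-29a-5p the values were 4.74, 6.18 and 4.67 in Wt, and 3.76, the floor and 5.51 in Agt Tg, from at most 57 reads. Wt 2 and Agt Tg 3 were the highest here too. The arm miR-29c-5p was above the floor in 3 libraries, at 4.44 in Wt 2, 4.73 in Agt Tg 2 and 4.78 in Agt Tg 3. For miR-29b-1-5p the values were 3.74, 4.26 and 3.35 in Wt, and 3.41, the floor and 3.62 in Agt Tg. The remaining row, miR-29b-2-5p, was above the floor only in Wt 3, at 3.61 from 12 reads, and was not tested.

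**Figure D1:**
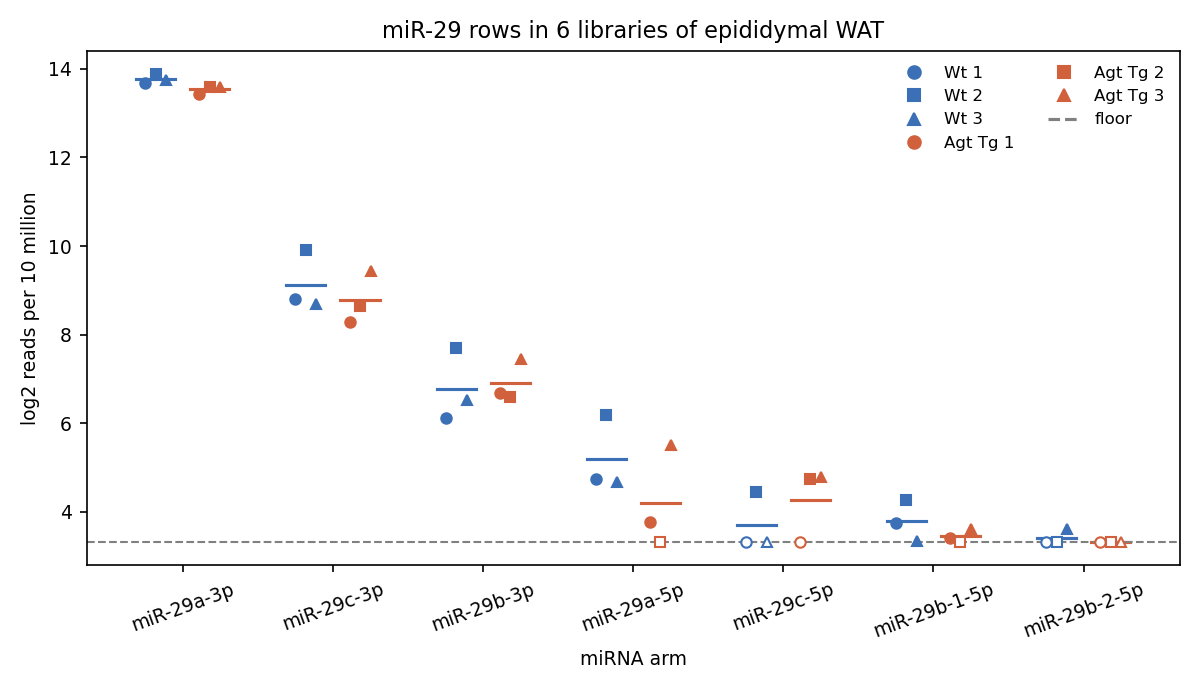
Log2 normalised reads of each miR-29 row in 3 Wt libraries (blue) and 3 Agt Tg libraries (orange), with bars at group means, the floor as a dashed line and open symbols for values at the floor. The guide miR-29a-3p sits between 13.44 and 13.88, far above miR-29c-3p and miR-29b-3p, and the 5p arms lie between the floor and 6.18.

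Levels were ordered within each library, where depth cancels, by exact two-sided sign-flip permutation tests over 6 libraries, adjusted over 5 neighbouring pairs. The pairs are neighbours in the order of mean levels over the same libraries, so the values tested also set which pairs were compared. Level differences between rows keep any bias of ligation and amplification that depends on sequence. How a read close to both miR-29a-3p and miR-29c-3p was assigned is not known, and their levels and shares depend on it. The guide miR-29a-3p exceeded miR-29c-3p by 4.70 ± 0.50 log2 units (SD, n = 6), or 25.9-fold, in 6 of 6 libraries (exact p = 0.0312, adjusted 0.052). The guide miR-29c-3p exceeded miR-29b-3p by 2.11 ± 0.35 log2 units, or 4.33-fold, in 6 of 6 libraries (exact p = 0.0312, adjusted 0.052). The step from miR-29b-3p to miR-29a-5p was 2.15 ± 0.78 log2 units, also in 6 of 6 libraries, with the same exact p. The smallest p that 6 libraries allow is 0.03125, and with 3 of 5 pairs at that p the adjusted value cannot be lower than 0.052.

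Further down the order, neighbours did not differ beyond their spread. The difference of miR-29a-5p over miR-29c-5p was 0.71 ± 1.15 log2 units, in 5 of 6 libraries (exact p = 0.188, adjusted 0.235). That of miR-29c-5p over miR-29b-1-5p was 0.37 ± 0.74 log2 units, in 3 of 6 libraries (exact p = 0.375). Values at the floor enter both of these differences, and that of miR-29b-3p over miR-29a-5p in Agt Tg 2. For miR-29c-5p over miR-29b-1-5p the higher row was floored in Wt 1, Wt 3 and Agt Tg 1 and the lower row in Agt Tg 2, so the true difference may be smaller or larger.

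Summed over the 3 guides, the family came to 13553, 16217 and 14308 normalised reads in Wt and 11549, 12729 and 13319 in Agt Tg. Each Agt Tg library was below each Wt library on this scale, an arrangement that 10.6% of all tested rows shared. The sum is 92.8% to 96.5% miR-29a-3p, so it repeats the values of that row and is not a separate result. After TMM scaling, which uses the bulk of rows to set library size, the sums were 12265, 16047 and 14067 in Wt and 11354, 13653 and 14346 in Agt Tg, and the genotypes overlapped.

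The makeup of the guide pool differed between libraries of the same genotype, and for each guide the genotypes overlapped. The share of miR-29a-3p was 96.2%, 92.8% and 96.5% in Wt and 96.4%, 96.1% and 93.5% in Agt Tg. For miR-29c-3p the share was 3.29%, 5.91% and 2.87% in Wt and 2.71%, 3.14% and 5.17% in Agt Tg. Wt 2 (95% Wilson interval 5.51% to 6.33%) and Agt Tg 3 (4.81% to 5.55%) stood above the other 4 libraries, whose intervals reached at most 3.66%. The share of miR-29b-3p was 0.513%, 1.27% and 0.64% in Wt and 0.885%, 0.763% and 1.32% in Agt Tg, with the same libraries highest. Intervals cover counting error only. They may be too narrow even for that, since reads without molecular identifiers are not independent molecules.

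Ratios within a library do not depend on how libraries are scaled, and 5 were compared between genotypes by exact two-sided permutation of 3 against 3 libraries, which cannot give a p under 0.1. On the log2 scale miR-29c-3p relative to miR-29a-3p was -4.64 ± 0.58 in Wt and -4.76 ± 0.51 in Agt Tg (SD, n = 3; difference -0.12, exact p = 0.6, adjusted 0.6). For miR-29b-3p relative to miR-29a-3p it was -6.99 ± 0.71 in Wt and -6.63 ± 0.43 in Agt Tg (difference 0.36, exact p = 0.5, adjusted 0.6). With each library left out, the difference for miR-29c-3p ranged from -0.41 to 0.22 (0.22 without Wt 2), and that for miR-29b-3p from 0.08 (without Wt 1) to 0.76 (without Wt 2). No direction is given for either ratio.

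The 3p and 5p arms were compared in the same way. Since miR-29b-3p is made from both Mir29b-1 and Mir29b-2, its excess over miR-29b-1-5p is not a ratio within a single hairpin. The log2 excess of miR-29a-3p over miR-29a-5p was 8.57 ± 0.76 in Wt and 9.35 ± 1.12 in Agt Tg (SD, n = 3; difference 0.78, exact p = 0.4, adjusted 0.6), and the difference ranged from 0.32 (without Agt Tg 2) to 1.40 (without Agt Tg 3). That of miR-29b-3p over miR-29b-1-5p was 2.99 ± 0.55 in Wt and 3.46 ± 0.33 in Agt Tg (difference 0.47, exact p = 0.4, adjusted 0.6), and the difference ranged from 0.16 (without Wt 1) to 0.69 (without Wt 2). In Agt Tg 2 both 5p arms were at the floor, so that each excess is a lower bound there. For miR-29c-3p over miR-29c-5p it was at least 5.48 in Wt 1, 5.47 in Wt 2, at least 5.36 in Wt 3, at least 4.97 in Agt Tg 1, 3.91 in Agt Tg 2 and 4.65 in Agt Tg 3. The test of this ratio took the floored values as measured (difference -0.93, no overlap, exact p = 0.1, adjusted 0.5), and with 3 of 6 values as bounds nothing is read from it. Agt Tg 2 and Agt Tg 3 lay below every Wt library, and the place of Agt Tg 1 cannot be told.

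Between genotypes, 0 of the 6 tested miR-29 rows were called at a limma p of at most 0.05, without adjustment, together with at least a 2-fold difference, against 16 of 329 rows overall (4.86%). Those 16 were 9 higher and 7 lower in Agt Tg, and under TMM scaling 15 were called, 10 higher and 5 lower. The balance did not hold with each library left out, since without Agt Tg 1 there were 33 calls, 8 higher and 25 lower, and without Agt Tg 3 there were 11. Among the 208 rows with a mean of at least 100 normalised reads, 3 were called, 1 higher and 2 lower. With Benjamini-Hochberg adjustment in limma, 0 of 329 rows (0%) passed 0.05, with a smallest adjusted p of 0.382. Without adjustment limma put 30 rows at a p of 0.05 or less and limma-voom 32, and 0 of either passed after adjustment.

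The guide miR-29a-3p averaged 13.77 ± 0.10 in Wt and 13.54 ± 0.09 in Agt Tg (SD, n = 3). Its log2 fold change was -0.23 (standard error 0.16, 95% interval -0.61 to 0.16, limma adjusted p = 0.592; exact permutation p = 0.1). It was the only miR-29 row whose genotypes did not overlap, an arrangement with Agt Tg lower that 35 of 329 rows (10.6%) shared, and 58 rows (17.6%) did not overlap in either direction. Without Wt 2 the log2 fold change was -0.17. Under TMM scaling it was -0.10, and the genotypes overlapped, as they did relative to miR-191-5p.

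The bulk of rows lay on the same side. The median log2 fold change of all 329 rows was -0.19, 222 rows (67.5%) were lower in Agt Tg, and TMM scaling moved the median to -0.07. Relative to the median of all rows, miR-29a-3p differed by -0.04. The interval of its fold change leaves out a 2-fold difference in either direction.

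For miR-29c-3p the means were 9.13 ± 0.67 in Wt and 8.79 ± 0.58 in Agt Tg (SD, n = 3; log2 fold change -0.34, standard error 0.44, 95% interval -1.37 to 0.69, limma adjusted p = 0.738). Without Wt 2 its log2 fold change was 0.05. For miR-29b-3p the means were 6.78 ± 0.82 and 6.91 ± 0.48 (log2 fold change 0.14, standard error 0.48, 95% interval -0.99 to 1.26, limma adjusted p = 0.893). Its sign turned when Wt 1 (-0.19) or Agt Tg 3 (-0.14) was left out, and without Wt 2 it was 0.59. No direction is given for either guide.

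Among the 5p arms the log2 fold change was -1.0 for miR-29a-5p (standard error 0.67, limma adjusted p = 0.587). Without Agt Tg 3 it was -1.66 and met the unadjusted rule, with a limma adjusted p of 0.834. For miR-29b-1-5p it was -0.33 (standard error 0.33) and for miR-29c-5p 0.58 (standard error 0.52), with limma adjusted p of 0.676 and 0.665. Without Wt 2 the values were -0.51 for miR-29a-5p and -0.09 for miR-29b-1-5p, and miR-29c-5p was not testable. Where it could be tested with a library left out, miR-29c-5p ranged from 0.40 (without Wt 1) to 1.06 (without Agt Tg 1, limma adjusted p = 0.311). In miR-29a-5p and miR-29b-1-5p the floor stands in for Agt Tg 2, so Agt Tg may be lower than printed, whereas in miR-29c-5p it enters both genotypes and the true difference may be smaller or larger. In bulk tissue, fewer cells of a type and less RNA per cell cannot be told apart.

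**Figure D2:**
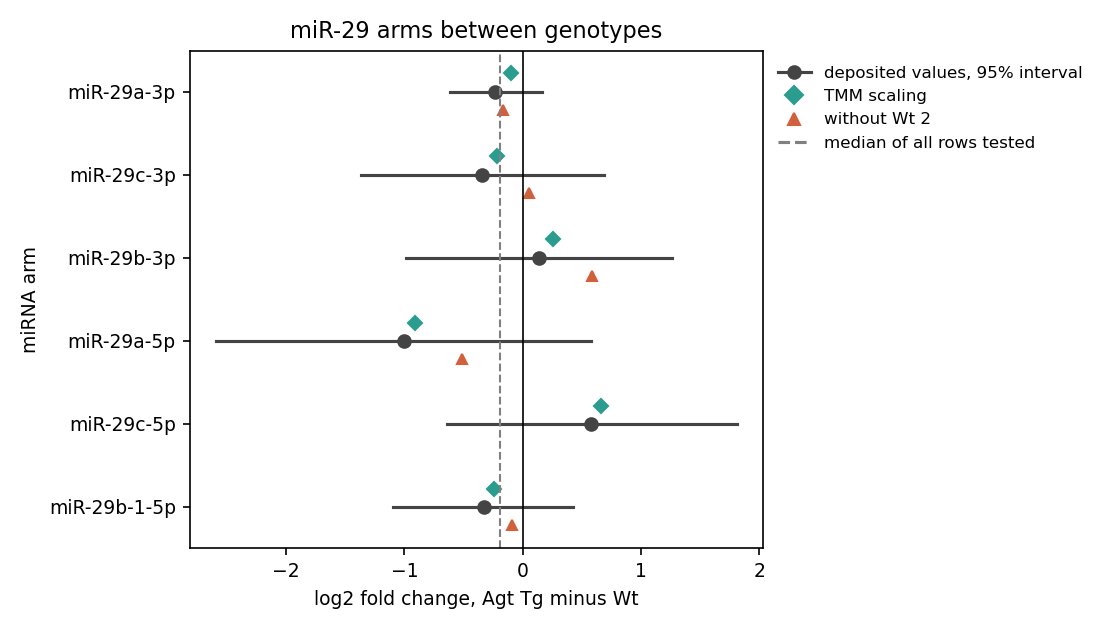
Log2 fold change (Agt Tg minus Wt) of each tested miR-29 arm with its 95% interval from limma (circles, lines), under TMM scaling (diamonds) and without Wt 2 (triangles; miR-29c-5p was then not testable). Every interval includes 0, and the value for miR-29a-3p (-0.23) lies beside the median of all rows (dashed, -0.19).

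The guides differed in their spread between libraries. The pooled SD within genotypes was 0.10 for miR-29a-3p, place 203 from the most variable among the 208 rows with a mean of at least 100 normalised reads. It was 0.63 for miR-29c-3p (place 30) and 0.67 for miR-29b-3p (place 26), and the median of those rows was 0.35. From lowest to highest library, miR-29a-3p spanned 1.35-fold, miR-29c-3p 3.06-fold and miR-29b-3p 2.97-fold.

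All 6 tested rows had their highest Wt value in Wt 2 and their highest Agt Tg value in Agt Tg 3. This held for 63 of 329 rows (19.1%), and the pattern was chosen after its values were seen. Under TMM scaling it held for the same 6 miR-29 rows and for 72 rows in all (21.9%), and relative to miR-191-5p for 147 (44.7%). The 6 rows come from 4 hairpins in 2 pairs and are not independent. Agt Tg 3 led only narrowly in miR-29a-3p (13.60 against 13.58 in Agt Tg 2) and miR-29c-5p (4.78 against 4.73 in Agt Tg 2). The lead was also narrow in miR-29b-1-5p (13 reads against 11 in Agt Tg 1). For miR-29c-5p and miR-29b-1-5p it was below the counting SD in Agt Tg 3 (0.268 and 0.4). The arms of Mir29a differed in size, since miR-29a-5p was 1.49 above its own mean in Wt 2 and 0.81 above in Agt Tg 3, where miR-29a-3p was at 0.22 and -0.05.

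**Figure D3:**
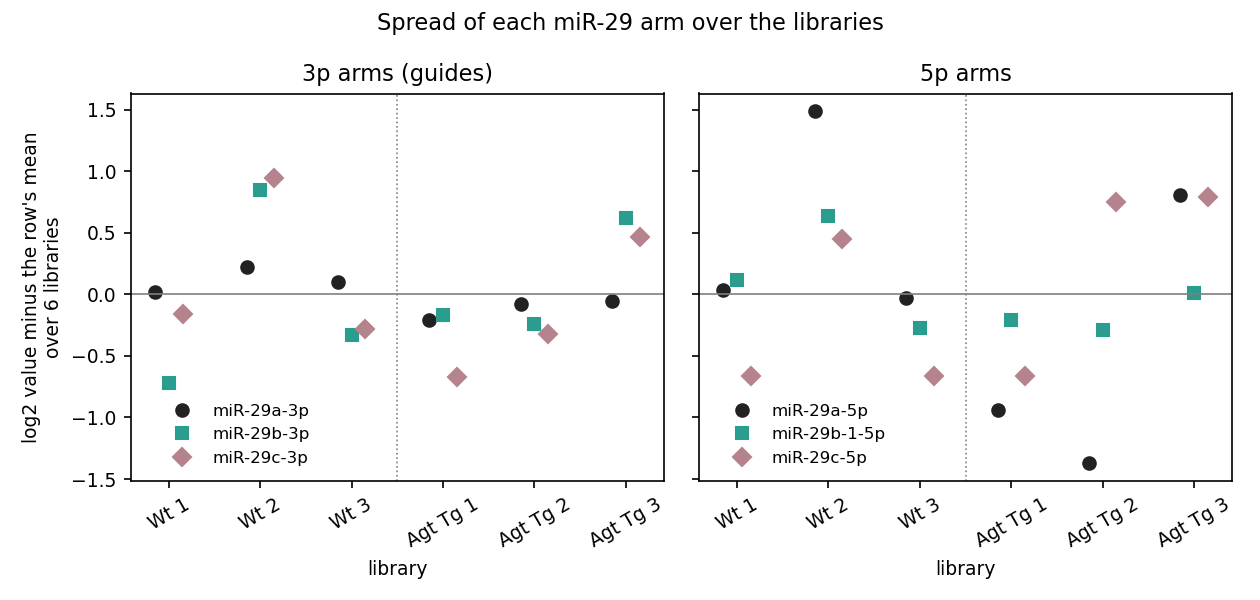
Log2 value of each tested miR-29 arm minus its own mean over 6 libraries, for 3p arms (left) and 5p arms (right). In Wt 2 and Agt Tg 3 the guides miR-29b-3p (0.85 and 0.62) and miR-29c-3p (0.95 and 0.47) lie above their means, while miR-29a-3p stays between -0.21 and 0.22.

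Likeness was measured as the root mean square difference between row-centred log2 values over 6 libraries, against 323 rows outside the family. Closest to miR-29a-3p were miR-150-5p (0.06), miR-374b-5p (0.06) and miR-10a-5p (0.08), rows that, like it, varied little. Closest to miR-29b-3p were miR-101-3p (0.20), miR-218-5p (0.25) and miR-101-5p (0.25), and closest to miR-29c-3p were miR-210, let-7f-5p and miR-101-3p (each 0.25). The distance between miR-29b-3p and miR-29c-3p was 0.32, and that of miR-29a-3p was 0.52 to miR-29b-3p and 0.45 to miR-29c-3p. Counted among these rows, miR-29c-3p took place 10 from miR-29b-3p and miR-29b-3p place 12 from miR-29c-3p, whereas miR-29a-3p took place 65 from miR-29b-3p and place 47 from miR-29c-3p. From miR-29a-3p, which varied little, miR-29c-3p took place 188 and miR-29b-3p place 217.

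Marker rows of other cell types also differed between libraries. The erythroid list (miR-451a, miR-144 and miR-486; 5 rows, 0 at the floor in all libraries) summed to 172010, 50991 and 177232 normalised reads in Wt and 208134, 111087 and 93203 in Agt Tg. The sum was lowest in Wt 2 and Agt Tg 3, where miR-29b-3p and miR-29c-3p were highest, and was mostly miR-486-5p, which read 17.34, 15.55 and 17.38 in Wt and 17.62, 16.66 and 16.42 in Agt Tg on the log2 scale. The row miR-451a was also lowest in Wt 2 (11.30) and Agt Tg 3 (12.08). The list did not move as one, since miR-144-3p (8.33) and miR-144-5p (9.47) were highest of all libraries in Agt Tg 3. The list's median log2 fold change of 0.40 was -0.05 without Wt 2. Of its 5 tested rows 0 were called and 0 were lower in Agt Tg, beside 4.86% called and 67.5% lower over all rows. These rows include both arms of miR-144 and of miR-486 and are not independent. Their part in the miR-29 values was not tested.

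Wt 2 also stood apart by markers of epididymis, testis and epithelium, tissues that border this fat pad. That list (27 rows, of which 14 were at the floor in all libraries) summed to 2035, 142985 and 1349 normalised reads in Wt and 2064, 1259 and 1746 in Agt Tg. Its most abundant row, miR-34c-5p, read 16.32 in Wt 2 and between 9.54 and 10.36 elsewhere. At the floor in every library were, among others, miR-429, miR-449b-5p, miR-449c-5p and miR-96-5p. The list's median log2 fold change of -2.17 was 0.05 without Wt 2. Of 9 tested rows 1 was called, against 4.86% of all rows. This was miR-205-5p, which fell by 2.17 on the log2 scale (limma adjusted p = 0.382). Its values in Agt Tg (5.37, 4.73 and 4.01) lay below every Wt library, including those other than Wt 2. Agt Tg 3, also high in miR-29c-3p, had a sum within the range of the libraries other than Wt 2, with some rows above those libraries and some below. The list's part in the values of Wt 2 was not tested.

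**Figure D4:**
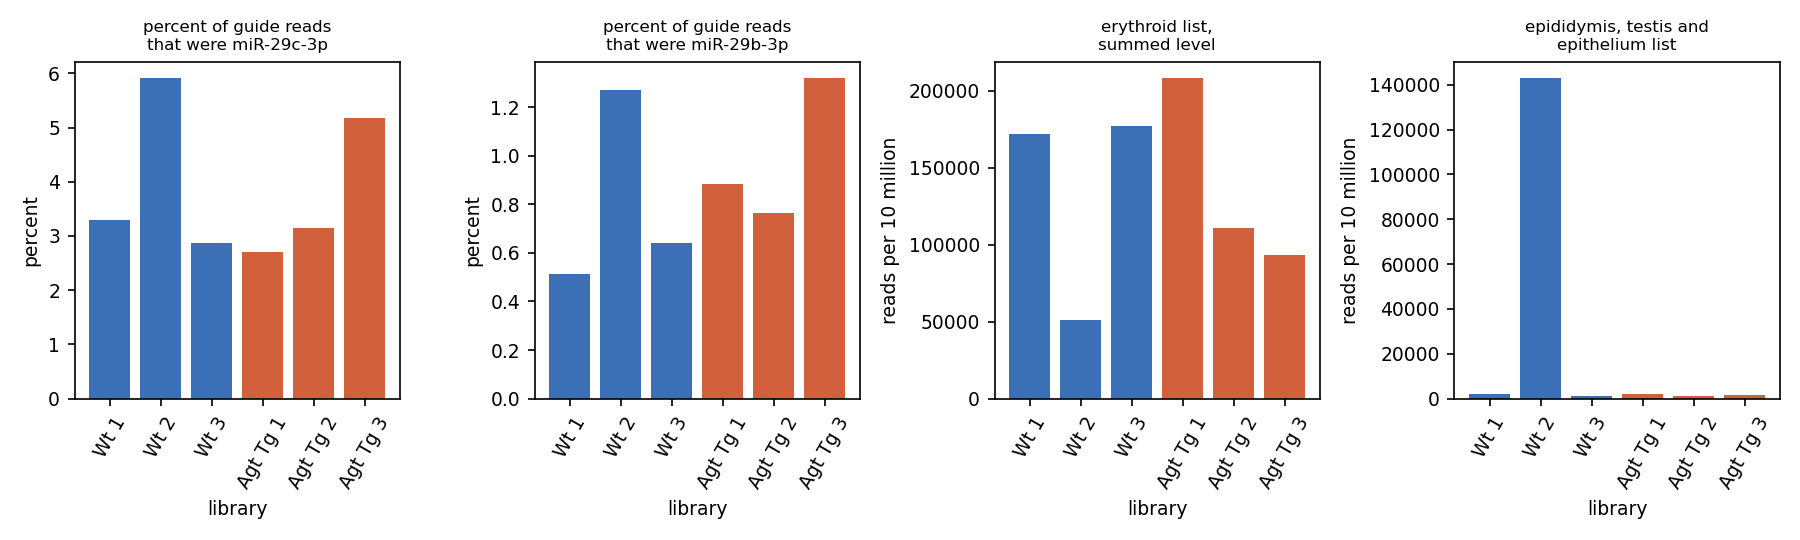
Per library, the percent of guide reads that were miR-29c-3p and miR-29b-3p, and the summed level of the erythroid list and of the epididymis, testis and epithelium list in normalised reads (bars from 0; blue Wt, orange Agt Tg). Wt 2 and Agt Tg 3 have the highest miR-29c-3p shares (5.91% and 5.17%) and the lowest erythroid sums, which are mostly miR-486-5p, and the sum of the last list is high in Wt 2 alone.

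Lists for other cells of fat tissue were set beside these values. The fibroblast and mural cell list (miR-143 and miR-145; 4 rows tested, 0 called) summed to 382236, 456310 and 412605 in Wt and 430712, 456263 and 585885 in Agt Tg, mostly miR-143-3p, with a median log2 fold change of 0.23 (0.15 to 0.42 with each library left out). The endothelial list (miR-126; 2 rows tested, 0 called) summed to 87273, 72184 and 70782 in Wt and 77582, 85720 and 118266 in Agt Tg, with a median of 0.23 (0.07 without Agt Tg 3). Both sums were highest in Agt Tg 3. In both lists 0 tested rows were lower in Agt Tg, beside 67.5% lower and a median of -0.19 over all rows. With so few rows, 0 calls are near the 4.86% called over all rows. The rows are both arms of these miRNAs and are not independent. The fibroblast miRNAs miR-199 and miR-214 were placed in the profibrotic list below instead. Their tested rows went the other way, with log2 fold changes from -0.73 to -0.38.

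The adipocyte list, led by miR-378a-3p, had 9 rows tested, 0 called and 3 lower, beside 4.86% called and 67.5% lower over all rows. It summed to 89761, 51222 and 90325 in Wt and 64006, 86713 and 81131 in Agt Tg, lowest in Wt 2. Its median log2 fold change of 0.13 was -0.15 without Wt 2, -0.05 without Agt Tg 2 and -0.04 without Agt Tg 3, so no direction is given. Among its rows miR-365a-3p and miR-365b-3p held identical values and count as 1 measurement. The haematopoietic list, led by miR-150-5p, had 7 rows tested, 0 called and 7 lower, beside 4.86% called and 67.5% lower over all rows. Its median was -0.56 (-0.94 to -0.30 with each library left out), beside -0.19 over all rows. The list summed to 45606, 44333 and 46425 in Wt and 44931, 33234 and 29633 in Agt Tg. Its 7 tested rows include both arms of miR-142 and of miR-342 and are not independent. Muscle (miR-499a-5p, -0.32) and liver (miR-122-5p, 0.35) had 1 tested row each, neither called. The row miR-499a-5p was at the floor in Wt 2, Agt Tg 1 and Agt Tg 3 and read at most 4.12 elsewhere, so its value rests on the floor.

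Other miRNAs known to restrain fibrosis, miR-30, miR-101, miR-133, miR-19 and miR-26, were set beside miR-29. Of 25 listed rows 18 were tested, of which 0 were called and 14 were lower in Agt Tg, beside 4.86% called and 67.5% lower over all rows. The median log2 fold change was -0.13, beside -0.19 over all rows. Under TMM scaling the list's median was -0.01, and without Wt 2 it was 0.04. The most abundant, miR-26a-5p, read 17.71, 17.81 and 17.83 in Wt and 17.77, 17.83 and 18.08 in Agt Tg, and miR-30a-5p, miR-30d-5p and miR-30c-5p had log2 fold changes of -0.12, -0.34 and -0.20.

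Profibrotic miRNAs, in the sense that raising them promotes matrix deposition in other tissues, were miR-21, miR-199, miR-214, miR-155, miR-208, miR-34a, miR-132 and miR-212. Of 18 listed rows 11 were tested, of which 0 were called and 11 were lower, beside 4.86% called and 67.5% lower over all rows. The 11 include both arms of miR-214, of miR-132 and of miR-212 and are not independent. The median was -0.38, beside -0.19 over all rows. With each library left out it ranged from -0.62 (without Agt Tg 1) to -0.15 (without Agt Tg 2). The most abundant, miR-21-5p, read 16.39, 16.43 and 15.76 in Wt and 16.16, 15.45 and 16.23 in Agt Tg (log2 fold change -0.25, limma adjusted p = 0.71). The rows miR-199a-3p and miR-199b-3p held identical values (log2 fold change -0.38 each) and are 1 measurement, although both are among the 11. The next, miR-214-3p, had -0.73 (standard error 0.30, limma adjusted p = 0.522), with overlapping genotypes.

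**Figure D5:**
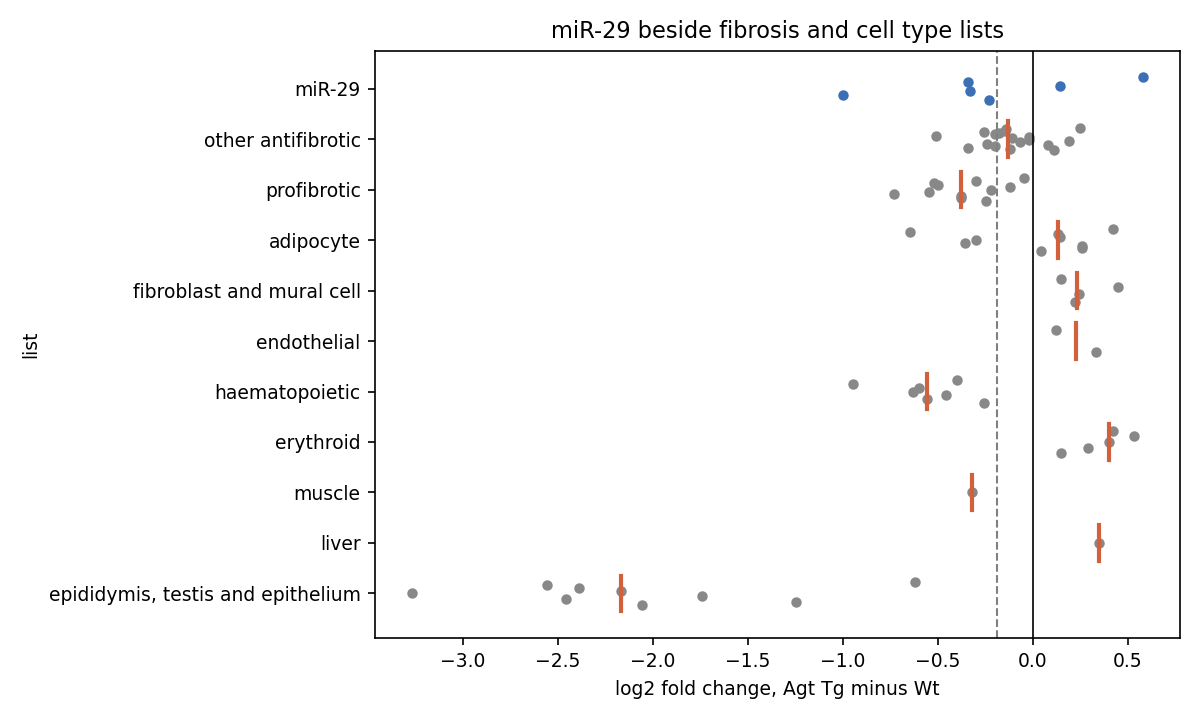
Log2 fold change (Agt Tg minus Wt) of each tested row of miR-29 (blue) and of the fibrosis and cell type lists (grey), with list medians in orange, 0 as a solid line and the median of all rows (-0.19) dashed. The 6 miR-29 rows lie between -1.0 and 0.58, on both sides of the dashed line.

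The reference miRNA miR-191-5p, against which the study's RT-qPCR was scaled, read 17.12, 16.58 and 17.41 in Wt and 17.23, 17.06 and 16.83 in Agt Tg (log2 fold change 0.01, standard error 0.24). Its lowest values were in Wt 2 and Agt Tg 3, the libraries with the highest miR-29b-3p and miR-29c-3p. Scaling to it gave log2 fold changes of -0.23 for miR-29a-3p, -0.35 for miR-29c-3p and 0.13 for miR-29b-3p.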

How the data were processed

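Small RNA libraries of 3 Wt and 3 Agt Tg epididymal WAT samples were used as deposited. The authors' deposited values are log2 reads per 10000000 of a library total, with lower values raised to 10. Their methods name FastQC, a pipeline that assigns reads to mature miRNAs, and the mouse genome (mm10 per the labels). Neither a miRBase release nor a mismatch allowance is named there. All 1924 of 1924 values above the floor were whole reads within 0.02 of a read, which gave library totals and counting error. In the table, 0 columns had no sample.

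The 329 rows that passed the floor in 3 or more libraries were fitted with limma 3.58.1 (R 4.3.3; variance trend, genotype only), with Benjamini-Hochberg adjustment over all rows, and the script was tested on simulated data. Exact tests used scipy 1.17.1 and Python 3.11.15. Libraries were grouped by title. Alternatives were log2(value + 1), TMM scaling (30% and 5% trimmed), scaling to miR-191-5p, limma-voom, no filter, a mean of at least 100, no variance trend, the replicate number as a block, and each library left out.

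The members and lists were chosen with earlier results of these data known. Named miRNAs were every miR-29 row, up to 4 of the most abundant rows of each list, miR-191-5p, the 3 rows nearest to each guide, and any other miRNA with the guides' seed; miR-205-5p, miR-214-3p and rows named as at the floor were added after their values were seen. Lists covered other antifibrotic, profibrotic, adipocyte, fibroblast and mural, endothelial, haematopoietic, erythroid, muscle, liver, and epididymis, testis and epithelium miRNAs. Of the 7 miR-29 rows, 7 matched a mature sequence by name.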

Additional observations from a re-analysis of the deposited data

How the results depend on the processing

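The 16 calls between genotypes became 3 with a mean of at least 100 normalised reads (1 higher, 2 lower, of 208 rows) and ranged from 11 to 33 with each library left out, the extremes being without Agt Tg 3 and without Agt Tg 1. With the replicate number as a block the count was 17, and no miR-29 row was called. Deviations of same-numbered libraries correlated at 0.22, -0.18 and -0.21 across rows, and not every library correlated best with its own number. Correlations this weak cannot tell a pairing from none, so whether the numbers pair the libraries is not known.

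With each library left out, the log2 fold change ranged from -0.27 to -0.17 for miR-29a-3p, from -0.66 to 0.05 for miR-29c-3p (0.05 without Wt 2) and from -0.19 to 0.59 for miR-29b-3p (-0.19 without Wt 1, -0.14 without Agt Tg 3). The cause of the turned signs was not tested. Of 78 comparisons of a result with an alternative that kept all libraries, 77 kept their direction and side of the threshold or, for list medians, moved by less than the spread between libraries; the other is the count of 3 above. The 5p arms were not testable at a mean of at least 100, nor miR-29c-5p without Wt 2, Agt Tg 2 or Agt Tg 3. GC content could not be checked over all tested rows, since 200 of 329 names (60.8%) matched a mouse mature sequence. At 52 to 186 reads, miR-29b-3p carries a counting SD with a median of 0.146 over libraries.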
